A study of Mus musculus with 27 samples.

Results

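The lesions described here are 9 radiation-induced proliferative lesions (PL) of the mouse thyroid, divided by how much Cck transcript they held. Cck encodes the peptide hormone cholecystokinin. Both classes were chosen by the Cck value itself, taken as CPM, the count divided by the library total and multiplied by 1000000. The 6 libraries at 25 CPM or more are called Cck-high lesions and the 3 libraries below 25 CPM are called Cck-low lesions, out of 27 libraries in all. The other libraries were 9 of normal tissue of the same exposed mice, next to histologic abnormalities (NT, 6 from Cck-high and 3 from Cck-low mice), and 9 of normal thyroid of non-exposed mice (NCT).

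The Cck-high lesions came from 4 female and 2 male exposed mice, and the Cck-low lesions from 2 female and 1 male exposed mice. Each lesion has an NT library with the same mouse number. Tissue was cut by laser capture microdissection, and the 3′ ends of polyadenylated transcripts were counted. The labels used here do not state strain, age or radiation dose. The labels give no count of cells or lesions per library. In captured tissue, fewer cells of a type and less RNA per cell cannot be told apart.

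Cholecystokinin is best known as a hormone of gut cells and a transmitter of neurons. Its precursor is cut by prohormone convertases, sulfated, and amidated by the enzyme that Pam encodes, and the mature peptide acts on the receptors encoded by Cckar and Cckbr. Thyroid follicular cells make thyroglobulin and iodinate it, whereas the C cells between the follicles make calcitonin and granule proteins of the kind used by peptide-secreting cells.

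Cck stood at 33.5, 50.2, 64.6, 170.9, 251 and 272 CPM in the Cck-high lesions, against 2.74, 4.47 and 16.6 CPM in the Cck-low lesions. The member just inside the threshold was PL 2 at 33.5 CPM and the one just outside it was PL 5 at 16.6 CPM. These values set the classes and are not a result. Cck was left out of every test and count below. In the NT libraries, which the rule did not use, Cck ranged over 1.72 to 26.0 CPM in Cck-high mice and 0.594 to 0.969 CPM in Cck-low mice, and in NCT over 0.451 to 19.3 CPM.

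**Figure D1:**
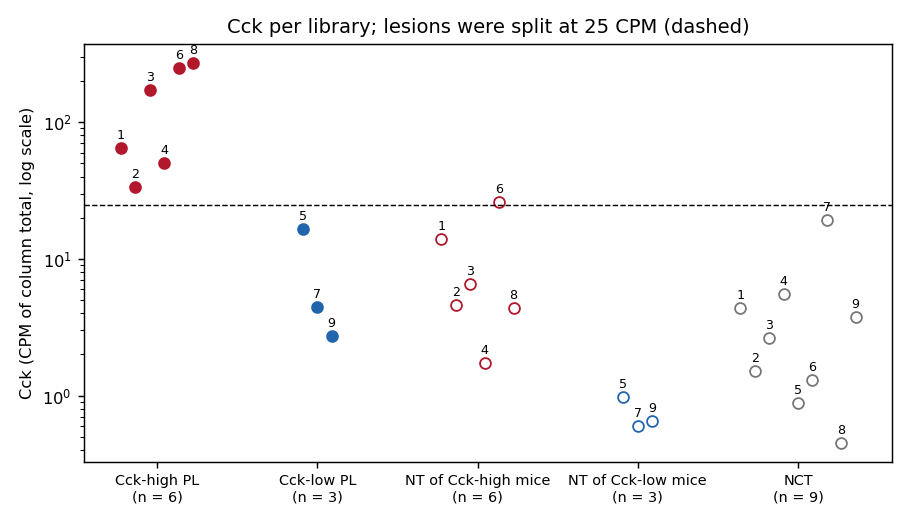
Cck in each library as CPM of the library total on a log axis, with replicate numbers beside the points and the 25 CPM threshold dashed. Filled points are lesions and open points are normal tissue. The 6 Cck-high lesions lie at 33.5 to 272 CPM and the 3 Cck-low lesions at 2.74 to 16.6 CPM. These values set the classes, and nothing is read from Cck in normal tissue.

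Library totals were 5276754 to 10212076 counts in Cck-high lesions and 4693945 to 12055026 in Cck-low lesions, so the classes overlapped in depth. Several libraries stood apart. PL 2, a Cck-high lesion, held the parathyroid hormone transcript Pth at 27396 CPM, and the other 8 lesions held 35.0 to 88.3 CPM. The summed level of 6 parathyroid markers was 46252 CPM in PL 2 and 132 to 212 CPM in the others. PL 5, a Cck-low lesion, held red blood cell transcripts at a summed 17640 CPM, and the other lesions 1825 to 4331 CPM. NT 7 and NT 9, both from Cck-low mice, held parathyroid markers at 33454 and 35851 CPM, which leaves NT 5 as the only NT library of a Cck-low mouse at a low level of them. Both also held airway and squamous epithelium markers, at a summed 7570 and 7269 CPM, against 176 CPM in NT 5. Among NT of Cck-high mice, NT 8 held 7288 CPM of these markers and the others 547 to 1680 CPM. Levels of genes below are CPM with library sizes adjusted by TMM, a trimmed mean of log ratios between libraries.

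In the direct comparison of the lesions, no gene passed an adjusted p of 0.05 in edgeR's quasi-likelihood test. Of 15320 genes tested, 0 were called (0%), with a smallest adjusted p of 0.203. An unadjusted p under 0.05 was reached by 1740 genes, 1027 of them higher and 713 lower in Cck-high lesions. The limma-voom fit called 0 genes and the Wald test of DESeq2 called 254, 189 higher and 65 lower. Without PL 5 edgeR called 29 genes, 13 higher and 16 lower, and without any other single lesion it called 0. Because the classes were selected on 1 gene in these same libraries, a difference says only that a gene goes with the Cck class, and the p-values measure the spread between lesions of different mice. All values of this comparison are therefore given as descriptions.

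Groups of lesions that do not overlap in level can be counted without a model. In 397 of the 15320 genes (2.59%) every Cck-high lesion lay above every Cck-low lesion, and in 478 (3.12%) every Cck-high lesion lay below every Cck-low lesion. The 8 genes of smallest p in each direction with at least 10 CPM on average were all among these.

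Elobl, whose name marks it as similar to the elongin B gene, had the widest difference of them. It lay at 36.7 CPM at the lowest, 79.9 at the median and 238 at the highest in Cck-high lesions, against 3.44, 6.21 and 3.29 CPM in Cck-low lesions (log2 fold change 4.80, SE 0.81, edgeR adjusted p = 0.215). The lowest Cck-high lesion was PL 2 and the highest PL 3, and no lesion of 1 class reached the range of the other. Hs3st4, a heparan sulfate sulfotransferase, lay at 34.4, 52.9 and 92.9 CPM at the lowest, median and highest in Cck-high lesions, against 16.2, 17.5 and 7.47 CPM in Cck-low lesions (log2 fold change 2.15, SE 0.40). St6gal1, which adds sialic acid to glycans, lay at 81.8 to 194 CPM around a median of 122 in Cck-high lesions, against 47.8, 36.1 and 19.8 CPM in Cck-low lesions (log2 fold change 1.93, SE 0.37). For both genes PL 9 was the lowest lesion.

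The other 5 genes of this kind have varied known roles. G0s2, an inhibitor of triglyceride breakdown, averaged 42.6 ± 16.2 CPM in Cck-high lesions and 11.7 ± 2.80 CPM in Cck-low lesions (SD, n = 6 and 3). Ddah1, which degrades an inhibitor of nitric oxide synthase, averaged 33.0 ± 13.8 CPM in Cck-high lesions and 7.97 ± 1.97 CPM in Cck-low lesions. Tuba1a, an alpha-tubulin, averaged 264 ± 54.6 CPM in Cck-high lesions and 107 ± 30.0 CPM in Cck-low lesions. Tmem237, a protein of the base of the primary cilium, was the tightest, with 37.8 ± 6.99 CPM in Cck-high lesions and 18.4 ± 1.40 CPM in Cck-low lesions. Zdhhc2, a palmitoyltransferase, lay at 14.4 to 50.1 CPM in Cck-high lesions and 4.19 to 7.98 CPM in Cck-low lesions, with PL 2 as its highest library.

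On the low side, Pdzk1ip1, a small membrane protein, lay at 3.18, 9.57 and 13.5 CPM at the lowest, median and highest in Cck-high lesions, against 16.9, 52.8 and 41.9 CPM in Cck-low lesions (log2 fold change -2.07, SE 0.42, edgeR adjusted p = 0.215). PL 5 was the Cck-low lesion nearest to the other class. Rasgef1a, an exchange factor for Ras-type GTPases, lay at 19.5 to 32.1 CPM in Cck-high lesions, against 44.3, 69.4 and 114 CPM in Cck-low lesions (log2 fold change -1.38, SE 0.25). Bcl2, the inhibitor of apoptosis, lay at 146 to 218 CPM in Cck-high lesions, against 266, 349 and 425 CPM in Cck-low lesions (log2 fold change -0.92, SE 0.18). In each of these genes the Cck-high lesions spanned fewer CPM, at a lower level, so their spread relative to that level need not be smaller.

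Inf2, a formin that acts on actin filaments, averaged 24.0 ± 6.36 CPM in Cck-high lesions and 58.0 ± 11.6 CPM in Cck-low lesions. Ptprs, a receptor tyrosine phosphatase, averaged 15.3 ± 3.93 CPM in Cck-high lesions and 37.2 ± 9.88 CPM in Cck-low lesions. Pkp4, a plakophilin of cell junctions, averaged 103 ± 9.06 CPM in Cck-high lesions and 171 ± 24.1 CPM in Cck-low lesions. Gigyf1 and Rnf183, a ubiquitin ligase gene, were at about 2-fold lower levels as well, with log2 fold changes of -0.99 (SE 0.22) and -0.93 (SE 0.21). These 16 genes kept their direction in every alternative fit of the lesion comparison, including each fit without 1 lesion. They were picked by smallest p in these same lesions and all separate the classes. Such fits could hardly turn them, so nothing is read from this.

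**Figure D2:**
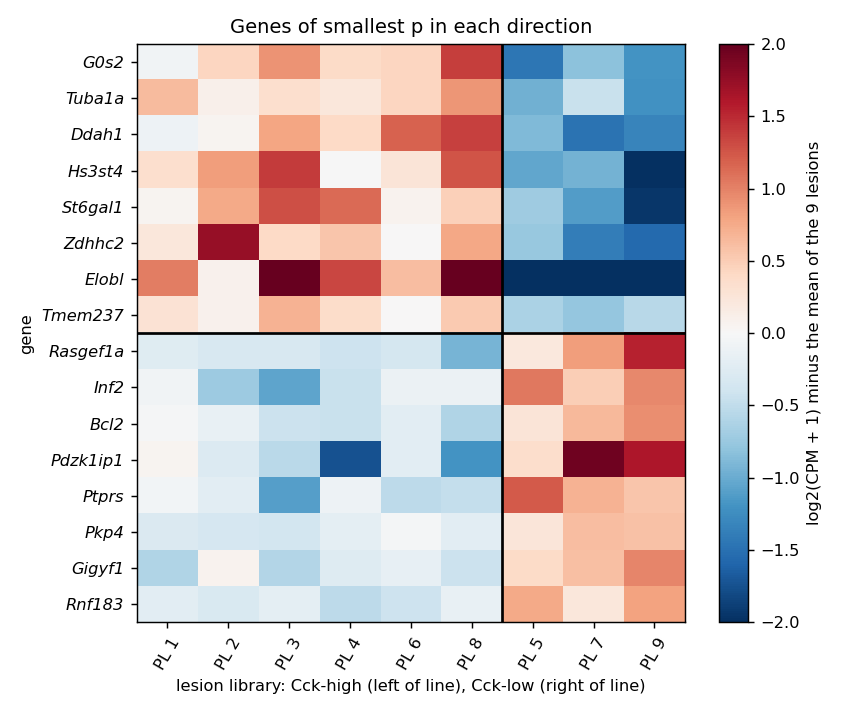
Levels of the 8 genes of smallest p in each direction, as log2(CPM + 1) minus the mean of the 9 lesions, with Cck-high lesions left of the vertical line and Cck-low lesions right of it. Colours are clipped at 2 on either side. All 16 genes separate the 6 Cck-high from the 3 Cck-low lesions, and none passed the adjusted threshold.

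An earlier analysis of these data named 14 genes as marking the lesions against NT of the same mice. Since that list was chosen on these libraries, it is not independent evidence of any direction. Of the 14 genes, 12 had a log2 fold change above 0 between Cck-high and Cck-low lesions, with a median of 1.40, against a median of 0.01 over all genes tested. In 6 of them every Cck-high lesion lay above every Cck-low lesion, as in 2.59% of all genes tested, and 0 were called. Muc4, a membrane mucin, lay at 13.2 to 85.5 CPM in Cck-high lesions and 3.58 to 7.57 CPM in Cck-low lesions. Dpp4, a peptidase of the cell surface that cleaves peptide hormones, lay at 23.3 to 65.0 CPM in Cck-high lesions and 7.95 to 14.4 CPM in Cck-low lesions. Col25a1, a membrane collagen, lay at 24.5 to 92.8 CPM in Cck-high lesions and 7.98 to 21.5 CPM in Cck-low lesions.

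Not every lesion gene followed the Cck class. Slc34a2, a sodium-phosphate cotransporter, lay at 43.2 to 369 CPM in Cck-high lesions, against 20.2, 209 and 63.5 CPM in Cck-low lesions, so that PL 7 and PL 9 lay within the Cck-high range. Atp2b2, a calcium pump, lay at 4.66 to 92.6 CPM in Cck-high lesions and 0.747 to 5.37 CPM in Cck-low lesions, with PL 1 inside the Cck-low range. Slc22a19, an organic anion transporter, lay at 6.08 to 70.5 CPM in Cck-high lesions, against 2.48, 8.73 and 1.27 CPM in Cck-low lesions. Hmga2, a chromatin protein of embryonic and tumour tissue, was one of the 2 genes below 0, with 32.7 ± 5.39 CPM in Cck-high lesions and 49.2 ± 23.9 CPM in Cck-low lesions.

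The genes that process peptide hormones showed few differences between the classes. Of 17 genes, 12 were tested, 9 of which had a log2 fold change above 0, with a median of 0.42. Scg5, a chaperone of a prohormone convertase, averaged 1058 ± 374 CPM in Cck-high lesions and 517 ± 67.6 CPM in Cck-low lesions (log2 fold change 1.05, SE 0.28, edgeR adjusted p = 0.24). PL 4 at 577 CPM lay inside the Cck-low range of 460 to 592 CPM. Pam, the amidating enzyme that cholecystokinin needs, was at 158 ± 34.6 CPM in Cck-high lesions and 208 ± 81.7 CPM in Cck-low lesions, and its difference turned to the other sign among females only.

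Thyroid differentiation genes did not separate the classes in the direct comparison of lesions. Of 24 tested, 11 had a log2 fold change above 0 and the median was -0.08. Tg, which encodes thyroglobulin, averaged 24142 ± 6722 CPM in Cck-high lesions and 21648 ± 12054 CPM in Cck-low lesions (log2 fold change 0.18, SE 0.35), a direction that turned without PL 7. Pax8, a transcription factor of follicular cells, averaged 149 ± 52.1 CPM in Cck-high lesions and 203 ± 95.9 CPM in Cck-low lesions. Slc5a5, the iodide transporter, lay at 35.2 to 186 CPM in Cck-high lesions, against 71.2, 102 and 511 CPM in Cck-low lesions, and its direction turned without PL 9. In 1 of the 24 every Cck-high lesion lay above every Cck-low lesion, beside 2.59% of all genes tested, so nothing is read from that count. It was Tshr, the thyrotropin receptor, at 176 to 359 CPM in Cck-high lesions and 127 to 156 CPM in Cck-low lesions (log2 fold change 0.75, SE 0.24). In NT, 18 of 24 thyroid genes were above 0 between both kinds of mice (median 0.57). The change of the lesion from NT, set between the classes, was below 0 in 19 of 24 (median -0.55). In 5 of 24 that change lay lower in every Cck-high mouse, beside 2.65% of all genes tested, and 0 were called. NT 7 and NT 9, rich in other markers, enter these values.

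Genes of the nuclear-encoded respiratory chain lay higher in Cck-high lesions with few exceptions. Of 31 tested, 28 had a log2 fold change above 0, with a median of 0.47, and in 7 every Cck-high lesion lay above every Cck-low lesion, as in 2.59% of all genes tested. Cox4i1, a subunit of cytochrome c oxidase, lay at 235 to 444 CPM in Cck-high lesions, against 188, 147 and 155 CPM in Cck-low lesions (log2 fold change 0.97, SE 0.22, edgeR adjusted p = 0.215). Cox7b of the same complex averaged 384 ± 79.6 CPM in Cck-high lesions and 205 ± 55.0 CPM in Cck-low lesions, and Ndufa1, a subunit of complex I, averaged 456 ± 146 CPM in Cck-high lesions and 192 ± 79.4 CPM in Cck-low lesions.

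The mitochondrially encoded genes had a smaller median of 0.20, with 10 of 13 above 0. Their summed level lay at 57491 to 89060 CPM around a median of 69901 in Cck-high lesions and at 41241 to 81405 CPM around a median of 52764 in Cck-low lesions. All 37 named mitochondrial rows, RNA genes included, took 10.5% ± 1.77 of counts in Cck-high lesions and 10.3% ± 1.51 in Cck-low lesions (SD, n = 6 and 3). Genes of cytosolic ribosomal proteins, a list added after the values were seen, were above 0 in 72 of 80 tested with a median of 0.29. Their share of all counts was 6.05% ± 0.902 in Cck-high lesions and 5.39% ± 0.664 in Cck-low lesions (two-sided exact permutation test over lesions, p = 0.298, adjusted 0.696 over 18 measures, where the smallest p that 6 against 3 lesions allow is 0.0119). Cell cycle genes were above 0 in 24 of 30, with a median of 0.39. In NT, 25 of 27 of them were above 0 between Cck-high and Cck-low mice, with a median of 0.93. The change of the lesion from NT, set between the classes, was below 0 in 24 of 30. Mki67, a marker of cycling cells, lay at 10.7 to 33.5 CPM in Cck-high lesions and 10.2 to 30.5 CPM in Cck-low lesions, with full overlap.

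Lysosome genes were above 0 in 21 of 25 tested, with a median of 0.32, and Cd63, a lysosomal membrane protein, lay at 702 to 1291 CPM in Cck-high lesions and 613 to 664 CPM in Cck-low lesions. Among 20 chaperones of the endoplasmic reticulum 15 were above 0. Hspa5, the main chaperone of that compartment, lay at 1946 to 3535 CPM in Cck-high lesions and 1509 to 1896 CPM in Cck-low lesions, and Dnajc3, its cochaperone, at 509.9 to 692 CPM in Cck-high lesions and 392 to 423 CPM in Cck-low lesions. Every Cck-high lesion lay above every Cck-low lesion in 1 of 25 lysosome genes and 2 of 20 chaperones, beside 2.59% of all genes tested. The genes printed were picked among the smallest p of their lists. Between NT of both kinds of mice, 22 of 25 lysosome genes (median 0.49) and 17 of 20 chaperones (median 0.42) were above 0 as well. Set between the classes, the change of the lesion from NT was below 0 in 18 of 25 lysosome genes and 12 of 20 chaperones. These shifts were thus not particular to the lesions.

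Of 17 genes of MAPK output and feedback, 12 were below 0, with a median of -0.22. Growth factors and their receptors were about even, with 10 of 21 above 0 and 11 below 0, and also had a median of -0.22. Spry2, a feedback inhibitor of the pathway, lay at 8.06 to 17.5 CPM in Cck-high lesions and 21.5 to 30.5 CPM in Cck-low lesions (log2 fold change -0.98, SE 0.28, edgeR adjusted p = 0.264). Ccnd1, which encodes cyclin D1, lay at 130 to 256 CPM in Cck-high lesions, against 211, 372 and 530 CPM in Cck-low lesions. Met, the receptor of hepatocyte growth factor, lay at 9.94 to 26.2 CPM in Cck-high lesions and 32.6 to 47.1 CPM in Cck-low lesions (log2 fold change -1.17, SE 0.32). For Ccnd1, PL 5 lay inside the Cck-high range, whereas for Spry2 and Met it did not.

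Ret, a receptor tyrosine kinase also known from C cells, lay at 5.49 to 24.5 CPM in Cck-high lesions, against 21.5, 46.2 and 43.2 CPM in Cck-low lesions. The secreted neurotrophin Bdnf was at 0 to 1.12 CPM in Cck-high lesions, against 1.65, 11.8 and 6.65 CPM in Cck-low lesions. Clock genes were below 0 in 10 of 14 tested, with a median of -0.58, among them Nr1d2, a nuclear receptor of the clock, at 35.6 to 60.9 CPM in Cck-high lesions and 65.9 to 69.0 CPM in Cck-low lesions. Between NT of both kinds of mice, 11 of 14 clock genes were below 0 as well (median -0.43). Their change of the lesion from NT, set between the classes, was above 0 in 8 of 14 (median 0.32). Collection times are not in the labels used here.

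Genes that respond to interleukin 1 through the factor NF-kB, a list added after the values were seen, were below 0 in 23 of 25 tested, with a median of -0.98. Cxcl2, a chemokine that attracts neutrophils, lay at 1.30 to 3.44 CPM in Cck-high lesions, against 6.61, 22.9 and 11.4 CPM in Cck-low lesions (log2 fold change -2.52, SE 0.45, edgeR adjusted p = 0.203). Il1b, which encodes interleukin 1 beta, lay at 1.46 to 11.7 CPM in Cck-high lesions, against 19.5, 18.2 and 18.3 CPM in Cck-low lesions. In other members PL 7 and PL 9 were high and PL 5 was not. Csf1, a macrophage growth factor, lay at 9.59 to 34.6 CPM in Cck-high lesions, against 25.3, 123 and 139 CPM in Cck-low lesions. Icam1, an adhesion molecule for leukocytes, lay at 33.5 to 133 CPM in Cck-high lesions, against 77.9, 358 and 255 CPM in Cck-low lesions, so that PL 5 was not apart from the Cck-high lesions. Slc7a11, the cystine transporter, belongs to another list, of ATF4 and amino acid stress, in which 10 of 17 genes tested were above 0 with a median of 0.15. It lay at 3.57 to 15.9 CPM in Cck-high lesions, against 4.82, 98.5 and 45.4 CPM in Cck-low lesions.

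**Figure D3:**
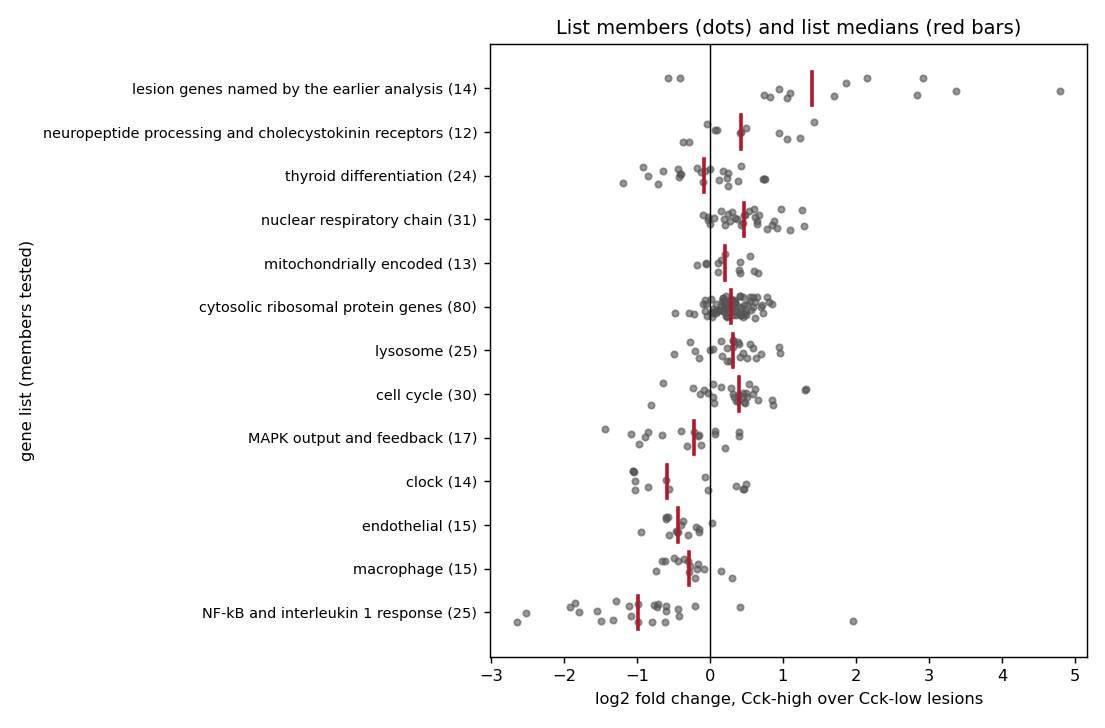
Log2 fold changes of Cck-high over Cck-low lesions for the tested members of 13 gene lists, 1 dot per gene, with the list median as a red bar. The median of the lesion genes lies at 1.40, that of the nuclear respiratory chain at 0.47, and that of the NF-kB and interleukin 1 response at -0.98, and 0 members of any list passed the adjusted threshold. The lesion genes were chosen on these same libraries. The lists of the NF-kB and interleukin 1 response and of cytosolic ribosomal proteins were added after the values were seen.

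Markers of other cell types were summed over each list. Endothelial markers lay at 887 to 1366 CPM in Cck-high lesions, against 1866, 1120 and 1904 CPM in Cck-low lesions (two-sided exact permutation test, p = 0.0595, adjusted 0.696 over 18 measures), with 14 of 15 genes below 0 and a median of -0.44. Plvap, a protein of fenestrated capillaries, lay at 82.4 to 163 CPM in Cck-high lesions, against 282, 122 and 257 CPM in Cck-low lesions. Flt1, a receptor of the growth factor encoded by Vegfa, lay at 208 to 354 CPM in Cck-high lesions and 376 to 494 CPM in Cck-low lesions. Vegfa itself averaged 190 ± 39.5 CPM in Cck-high lesions and 343 ± 128 CPM in Cck-low lesions. No endothelial marker was at 0 in any lesion.

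Macrophage markers summed to 394 to 2896 CPM in Cck-high lesions and 1301 to 1942 CPM in Cck-low lesions, with 13 of 15 genes below 0, a median of -0.29 and none at 0. B2m, a part of antigen-presenting molecules on nearly all cells, lay at 1038 to 2380 CPM in Cck-high lesions, against 2004, 3779 and 3223 CPM in Cck-low lesions. Skeletal muscle markers were high in 3 Cck-high lesions, PL 4, PL 6 and PL 8, at 285, 592 and 270 CPM, and at 10.02 to 35.5 CPM in the other 6 lesions, which gave that list a median log2 fold change of 4.59 over 9 tested genes. C cell markers summed to 112 to 448 CPM in Cck-high lesions other than PL 2, which held 18315 CPM through its Chga transcripts, and to 130 to 311 CPM in Cck-low lesions. The part of these cell types in the differences between the lesion classes was not tested.

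**Figure D4:**
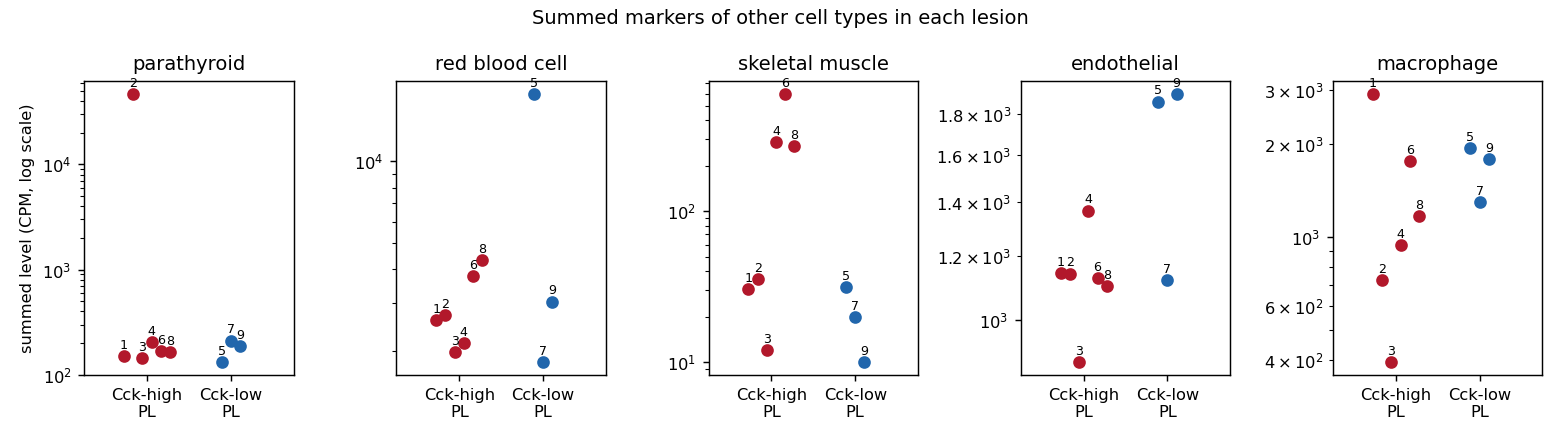
Summed levels of 5 marker lists in each lesion on log axes, with replicate numbers. Parathyroid markers stand out in PL 2 at 46252 CPM, red blood cell markers in PL 5 at 17640 CPM and skeletal muscle markers in PL 4, PL 6 and PL 8, while endothelial markers lie at 887 to 1366 CPM in Cck-high lesions and 1120 to 1904 CPM in Cck-low lesions.

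Setting each lesion against NT of its own mouse adds libraries that did not define the classes. The question is whether the change of the lesion from its normal tissue differed between the mice of both classes, tested as an interaction with the mouse as a block. It was called for 4 of 17726 genes (0.0226%), 3 with the more positive change in Cck-high mice and 1 with the more negative one. An unadjusted p under 0.05 was reached by 1807 genes. The lesion libraries are shared with the comparison above, so these genes are no independent support for it.

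Ssbp3, which encodes a partner of LIM-domain transcription complexes (GRCm38 chromosome 4, 106910701 to 107049694, plus strand), rose in Cck-high lesions over their NT by 1.21 on the log2 scale (SE 0.13) and had a change of -0.33 (SE 0.18) in Cck-low lesions, a difference of 1.54 (SE 0.22, edgeR adjusted p = 0.0335). Its levels were 72.8 ± 23.0 CPM in Cck-high lesions and 31.6 ± 9.66 CPM in their NT, and 42.3 ± 13.5 CPM in Cck-low lesions and 52.5 ± 11.8 CPM in their NT. Every Cck-high mouse had more Ssbp3 in the lesion than in NT, 6 of 6, and 0 of 3 Cck-low mice did. NCT averaged 45.1 CPM.

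Limch1, a regulator of actomyosin (chromosome 5, 66745827 to 67057158, plus strand), rose in Cck-high lesions over their NT by 1.60 (SE 0.17) and had a change of -0.32 (SE 0.23) in Cck-low lesions, a difference of 1.92 (SE 0.29, edgeR adjusted p = 0.0335). It averaged 248 ± 96.4 CPM in Cck-high lesions and 79.5 ± 18.9 CPM in their NT, and 80.2 ± 30.4 CPM in Cck-low lesions and 95.7 ± 11.1 CPM in their NT. Epdr1, which encodes a secreted protein related to fish ependymins (chromosome 13, 19591706 to 19619927, minus strand), rose by 2.82 (SE 0.30) in Cck-high lesions and had a change of -0.35 (SE 0.41) in Cck-low lesions, a difference of 3.17 (SE 0.51, edgeR adjusted p = 0.0415). It averaged 41.0 ± 25.1 CPM in Cck-high lesions and 5.09 ± 1.38 CPM in their NT, and 5.73 ± 2.81 CPM in Cck-low lesions and 6.92 ± 2.98 CPM in their NT. Both genes were higher in the lesion in 6 of 6 Cck-high mice and 1 of 3 Cck-low mice.

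Pdzk1ip1 (chromosome 4, 115088708 to 115093899, plus strand) fell in Cck-high lesions by 1.10 (SE 0.26, edgeR adjusted p = 0.0382) against their NT. In Cck-low lesions its change was 1.87 (SE 0.37, edgeR adjusted p = 0.0656), and the difference of -2.97 (SE 0.45) was called at an adjusted p of 0.0335. It averaged 8.67 ± 3.87 CPM in Cck-high lesions and 18.2 ± 6.62 CPM in their NT, and 37.2 ± 18.4 CPM in Cck-low lesions and 9.65 ± 3.78 CPM in their NT. It was lower in the lesion in 6 of 6 Cck-high mice and higher in 3 of 3 Cck-low mice, so that for Pdzk1ip1, as for Ssbp3, every mouse of 1 class moved opposite to every mouse of the other. Over all 17726 genes tested, the change lay higher in every Cck-high mouse than in every Cck-low mouse in 389 (2.19%). It lay lower in 470 (2.65%). The share with opposite signs was not computed, so nothing is read from that pattern.

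**Figure D5:**
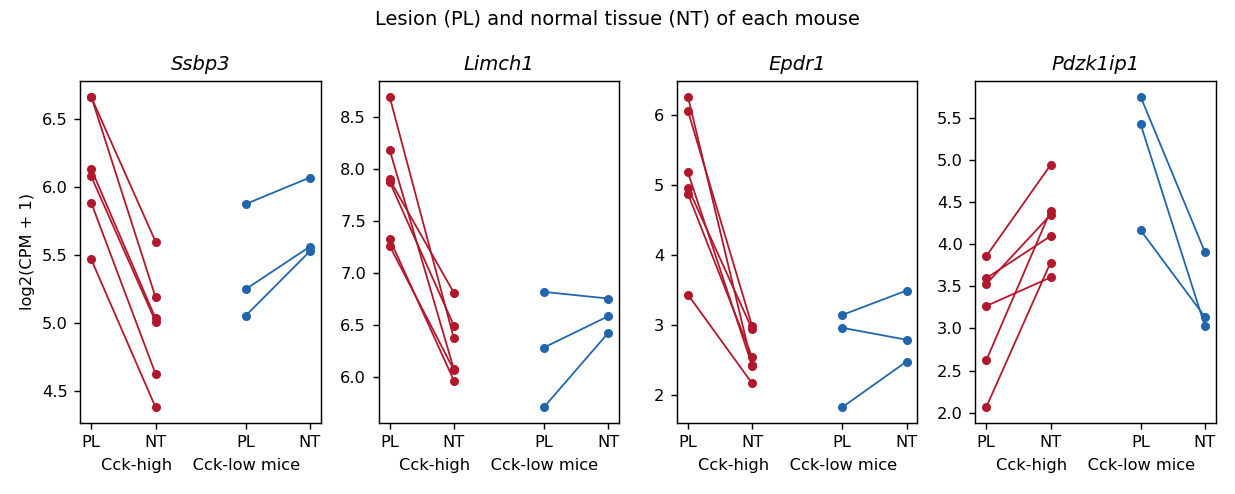
Levels of the 4 genes with a called interaction as log2(CPM + 1), with a line from the lesion (PL) to NT for each mouse, 6 Cck-high mice on the left in red and 3 Cck-low mice on the right in blue. In Cck-high mice Ssbp3, Limch1 and Epdr1 lie higher in all 6 lesions and Pdzk1ip1 lower in all 6, and in Cck-low mice Pdzk1ip1 lies higher in all 3 lesions.

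These calls rest on few mice. Leaving out mouse 6, 8 or 9 left 0 calls, and leaving out mouse 4 or 7 left 2 and 1, whereas without mouse 5 there were 138, without mouse 1 33, without mouse 3 13 and without mouse 2 7. Without the mouse as a block 1 gene was called and among females 0. Without mice 2, 7 and 9, whose libraries held Pth above 2000 CPM, 0 genes were called, with 1 Cck-low mouse left that is assumed to vary like the others. In that fit the differences were 1.71 for Ssbp3, 1.63 for Limch1, 3.35 for Epdr1 and -2.28 for Pdzk1ip1.

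Epdr1, which rose in Cck-high lesions, and Pdzk1ip1, which fell in them, each have 1 start listed in RefSeq. They are shown by the 250 bases before that start, 5′ to 3′ on the strand of the gene. Capitals mark a match to 1 of 4 motifs searched on both strands, namely the cyclic AMP response element TGACGTCA, the AP-1 site TGACTCA, the E-box CACGTG and the TATA box TATAAA. The Epdr1 sequence is chr13:19619831-19620080 on the minus strand and the Pdzk1ip1 sequence is chr4:115088458-115088707 on the plus strand of GRCm38.p6. The RefSeq start of Epdr1 lies inside the GENCODE extent given above, so part of its window falls within that extent.
Epdr1: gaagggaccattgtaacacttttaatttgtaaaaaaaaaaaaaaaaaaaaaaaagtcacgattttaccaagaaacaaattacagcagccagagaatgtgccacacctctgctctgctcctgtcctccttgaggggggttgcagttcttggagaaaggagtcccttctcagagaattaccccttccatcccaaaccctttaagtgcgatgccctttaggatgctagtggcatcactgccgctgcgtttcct
Pdzk1ip1: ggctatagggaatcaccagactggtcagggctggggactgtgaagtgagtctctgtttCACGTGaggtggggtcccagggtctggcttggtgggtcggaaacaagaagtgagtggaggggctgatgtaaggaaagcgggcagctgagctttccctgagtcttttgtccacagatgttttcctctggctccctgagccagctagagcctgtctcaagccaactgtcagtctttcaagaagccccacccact
The Pdzk1ip1 window holds the E-box letters once, and the Epdr1 window holds none of the 4. Of 32851 RefSeq windows of the same length, 6.02% hold the E-box letters, 1.55% the cyclic AMP response element, 4.46% the AP-1 site and 12.4% the TATA box. A match describes letters only.

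The genes next in line for the interaction did not pass the threshold. Zdhhc2 had a change of 1.07 (SE 0.33) in Cck-high lesions and -2.85 (SE 0.52) in Cck-low lesions against their own NT (interaction, edgeR adjusted p = 0.0518), higher in the lesion in 6 of 6 Cck-high mice and 0 of 3 Cck-low mice. Its level in NT was 10.96 ± 2.61 CPM in Cck-high mice and 44.96 ± 25.2 CPM in Cck-low mice, and among lesions it was highest in PL 2, the lesion with parathyroid transcripts. Ret had a change of -0.77 (SE 0.22) in Cck-high lesions and 1.47 (SE 0.32) in Cck-low lesions, lower in 6 of 6 Cck-high mice and higher in 3 of 3 Cck-low mice (adjusted p = 0.0518 in edgeR). Aif1l, an actin-binding protein, had changes of -0.56 (SE 0.13) in Cck-high lesions and 0.73 (SE 0.18) in Cck-low lesions. St6gal1 had changes of 0.90 (SE 0.23) in Cck-high lesions and -1.39 (SE 0.33) in Cck-low lesions, and Rasgef1a had changes of -0.93 (SE 0.18) in Cck-high lesions and 0.71 (SE 0.26) in Cck-low lesions.

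Against NT of the same mice, 383 of 17726 genes (2.16%) were called in Cck-high lesions, 239 higher and 144 lower. In Cck-low lesions 7 were called (0.0395%), 5 higher and 2 lower. Since 6 mice stand against 3, these counts cannot be compared, and the interaction above is the test of a difference. NT 7 and NT 9, which enter every change of the Cck-low lesions, held parathyroid transcripts and airway and squamous markers. The part of either in those changes was not tested. Leaving out mouse 8 left 57 calls in Cck-high lesions, mouse 4 left 94, mouse 3 left 149 and mouse 2 left 164. In Cck-low lesions the number was 446 without mouse 5, 97 without mouse 3, 11 without mouse 2, 4 without mouse 1, 2 without mouse 4 and 0 without mouse 7, 8 or 9.

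In Cck-high lesions the called rises included transcription factors of development that were named once their values were known. Lhx2, a LIM homeobox factor, rose by 4.49 (SE 0.50, edgeR adjusted p = 0.000347) to 22.7 ± 20.2 CPM in Cck-high lesions, against 0.934 ± 0.796 CPM in their NT. Sox17, a factor of endoderm and endothelium, rose by 2.47 (SE 0.27) to 85.1 ± 43.6 CPM in Cck-high lesions, against 15.1 ± 6.62 CPM in their NT. In Cck-low lesions Lhx2 stood at 3.16 ± 2.50 CPM, against 0.773 ± 0.665 CPM in their NT, and Sox17 at 22.8 ± 5.15 CPM, against 13.6 ± 6.36 CPM in their NT. The interaction was called for neither gene (edgeR adjusted p = 0.404 and 0.255), and both were higher in the lesion in all 9 mice.

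Surface and metal-binding proteins followed, also singled out afterwards. Epha7, an ephrin receptor, rose by 1.97 (SE 0.21) in Cck-high lesions and had a change of 0.91 (SE 0.28) in Cck-low lesions. Gpc4, a glypican, rose by 1.98 (SE 0.26) in Cck-high lesions and had a change of 0.65 (SE 0.36) in Cck-low lesions. Mt3, a metallothionein, rose by 3.02 (SE 0.34) in Cck-high lesions to 25.6 ± 25.1 CPM, against 2.84 ± 1.76 CPM in their NT. In Cck-low lesions Mt3 averaged 2.99 ± 1.30 CPM, against 3.01 ± 1.84 CPM in their NT (change 0.08, SE 0.48, interaction adjusted p = 0.089 in edgeR).

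Among the 14 lesion genes of the earlier analysis, 8 were called higher in Cck-high lesions over their NT, beside 1.35% of all genes tested, and 1, Sod3, in Cck-low lesions, beside 0.0282%. The list was chosen on lesions against NT in these same libraries, so nothing is read from these counts. Dpp4 rose by 1.72 (SE 0.21, edgeR adjusted p = 0.000529) in Cck-high lesions, in 6 of 6 mice, and had a change of -0.02 (SE 0.29) in Cck-low lesions, where it averaged 12.2 ± 3.70 CPM, against 12.5 ± 4.37 CPM in their NT. The interaction had an adjusted p of 0.0969 in edgeR for Dpp4. Slc22a19 rose by 3.90 (SE 0.56), Elobl by 4.41 (SE 0.63) and Muc4 by 3.41 (SE 0.60) in Cck-high lesions, against changes of 1.46 (SE 0.79), 1.60 (SE 1.01) and 1.06 (SE 0.84) in Cck-low lesions. Hmga2 rose by 1.50 (SE 0.34) in Cck-high lesions and had a change of 1.70 (SE 0.49) in Cck-low lesions. Hs3st4 rose by 3.28 (SE 0.62) in Cck-high lesions and had a change of 3.01 (SE 0.97) in Cck-low lesions, and its log2 fold change between the NT of both kinds of mice was 1.39 (SE 1.01).

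Falls in Cck-high lesions included Met by 1.25 (SE 0.20, edgeR adjusted p = 0.0045), Inf2 by 1.06 (SE 0.20), Ptprs by 1.01 (SE 0.21), Rasgef1a by 0.93 (SE 0.18) and Bcl2 by 0.67 (SE 0.14), each lower in the lesion in 6 of 6 Cck-high mice. In Cck-low lesions the changes of Met, Ptprs and Bcl2 were 0.04 (SE 0.27), 0.06 (SE 0.28) and 0.22 (SE 0.19). For Met, the Cck-low lesions at 40.6 ± 7.35 CPM lay at the level of NT, which was 40.0 ± 4.51 CPM in Cck-high mice and 39.1 ± 3.04 CPM in Cck-low mice. Plvap fell by 0.66 (SE 0.15) in Cck-high lesions and was 1 of 2 endothelial markers called lower, beside 0.812% of all genes tested, with all 15 below 0. In Cck-low lesions 9 of the 15 endothelial markers were above 0 and 0 were called, and 0 had a called interaction. Macrophage markers were below 0 in 15 of 15 in Cck-high lesions and above 0 in 13 of 15 in Cck-low lesions, with 0 called in either class. In NT itself all 15 were higher in Cck-high than in Cck-low mice (median 0.54), with 0 called, as were 11 of 15 endothelial markers (median 0.16). Macrophage markers summed to 1179 to 3011 CPM in NT of Cck-high mice, and to 2159, 737 and 940 CPM in NT 5, NT 7 and NT 9. The part of NT in these opposite signs was not tested.

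Of the genes called, 3 were called in both classes, which is 3 of 383 and 3 of 7. Of the 383 genes called in Cck-high lesions, 298 had a change of the same sign in Cck-low lesions. The share of same signs over all genes tested was not computed, so nothing is read from that count. Sod3, an extracellular superoxide dismutase, rose by 1.46 (SE 0.19) in Cck-high lesions and by 1.99 (SE 0.27) in Cck-low lesions. Fndc3a rose by 1.23 (SE 0.17) in Cck-high lesions and by 1.79 (SE 0.24) in Cck-low lesions. Cryab, a small heat shock protein, fell by 0.71 (SE 0.14) in Cck-high lesions and by 1.31 (SE 0.20) in Cck-low lesions. The other 4 calls of the Cck-low lesions were Pam with a rise of 1.35 (SE 0.23), Ctsa, a lysosomal protective protein, with 1.33 (SE 0.21), Trpv4, a calcium channel, with 1.85 (SE 0.28), and S100a14 with a fall, at -1.85 (SE 0.30). Pam had a change of 0.20 (SE 0.16) in Cck-high lesions. Trpv4 averaged 45.6 ± 7.54 CPM in Cck-high lesions and 44.4 ± 17.5 CPM in Cck-low lesions, and in NT 45.5 ± 13.4 CPM in Cck-high mice and 12.7 ± 6.56 CPM in Cck-low mice.

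The normal tissue of both kinds of mice was compared to see whether the classes differed outside the lesion. Of 15944 genes tested, 0 were called (0%) in edgeR, with a smallest adjusted p of 0.133, 1538 genes at an unadjusted p under 0.05, and 162 calls in the Wald test of DESeq2. Without NT 5 there were 166 calls, 48 higher and 118 lower in Cck-high mice, and both Cck-low libraries left in that fit held parathyroid transcripts. The genes of smallest p were Zdhhc2 (log2 fold change -2.01, SE 0.32), Slco3a1, an organic anion transporter gene (-1.62, SE 0.25), Trpv4 (1.85, SE 0.34) and Fam174b (1.26, SE 0.22). Slco3a1 averaged 32.0 ± 7.60 CPM in NT of Cck-high mice and 99.4 ± 40.4 CPM in NT of Cck-low mice, and among lesions its highest value, 150 CPM, was that of PL 2, the lesion with parathyroid transcripts, while the others lay at 7.15 to 42.7 CPM. Pth averaged 106 ± 89.8 CPM in NT of Cck-high mice and 14664 ± 13070 CPM in NT of Cck-low mice. The 2 of 3 Cck-low libraries rich in parathyroid transcripts were also rich in airway and squamous markers, as was NT 8 of a Cck-high mouse. These contents and the class of the mouse cannot be told apart in NT.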

How the data were processed

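The deposited table holds raw counts per gene from QuantSeq 3′ libraries of laser-captured tissue, with no normalization by the authors, and is the one unit used. STAR, featureCounts, DESeq2 and GRCm38 are named per the submitters' processing notes; the sources used here give no annotation release or strand setting. Gene names came from GENCODE M21, matching 54409 of 54532 rows, and the 123 others held 0.0251% of counts. Members, lists and tests were chosen with earlier results of these data known. Genes, Cck left out, were tested with edgeR 4.0.16 (R 4.3.3), with TMM factors, the default expression filter (minimum count 10), robust quasi-likelihood F tests and Benjamini-Hochberg adjustment at 0.05. Levels are TMM-scaled CPM over all 27 libraries, as mean ± SD. Standard errors were taken from the fold change and F, and tests were checked on simulated data. Lesion and NT libraries were matched on the labels' mouse numbers (9 pairs, deviations from group means correlated at -0.00317 to 0.270, 6 over 0.1), with the mouse as a block. No libraries within groups matched within sampling noise (72 pairs, lowest chi-square per degree of freedom 18.1). The labels do not say whether libraries were also replicated technically. Named genes were the 8 of smallest p per direction at 10 CPM or more where none passed, up to 3 of each of 39 lists, a fixed set, and 6 of smallest p in NT and interaction tests. Not all are printed, and predicted genes were not named. Lhx2, Sox17, Mt3, Epha7, Gpc4, Il1b, Cxcl2, Csf1, Icam1, Ctsa, S100a14, Fndc3a and Cryab were named after their values were seen. Alternatives used DESeq2 1.42.0 and limma 3.58.1.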

Additional observations from a re-analysis of the deposited data

Results flagged for a closer look

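For 4 genes the change of the lesion from NT of the same mouse differed between Cck-high and Cck-low mice by the interaction test of edgeR, by 1.54 for Ssbp3, 1.92 for Limch1, 3.17 for Epdr1 and -2.97 for Pdzk1ip1 on the log2 scale.

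Among the 87 genes examined, 8 had 1 Cck-high lesion far from the other 5, with a gap to the nearest of more than 0.625 of the range. For normally distributed values chance alone sets about 1 in 20 groups apart in this way. The levels here are CPM without a log, so that rate may not hold for them. PL 2 was the highest for Pth at 27396 CPM (next 88.3), Slco3a1 at 150 CPM (next 35.4) and Zdhhc2 at 50.1 CPM (next 25.03). PL 8 was the highest for Gapdh at 351 CPM (next 218) and Mt3 at 74.7 CPM (next 25.7), and the lowest for Rasgef1a at 19.5 CPM (next 28.4). PL 4 was the highest for Vegfa at 268 CPM (next 181) and PL 6 for Myh4, a myosin of skeletal muscle, at 254 CPM (next 77.3).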

How the results depend on the processing

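The count of called genes between Cck-high and Cck-low lesions was 0 under 18 of 23 alternatives, among them DESeq2 size factors, females only, sex as a covariate and the fit without PL 2. It was 119 with no filter on low counts, 254 with the Wald test of DESeq2, 42 with all 27 libraries in the fit, 16 with Cck as a continuous covariate, and 0 to 29 with 1 lesion left out. For NT it was 75 with no filter, 162 with DESeq2, 1 with sex as a covariate and 0 to 166 with 1 library left out. Interaction calls were 1 with no replicate block, 639 with no filter, 0 among females, 0 without the mice over 2000 CPM of Pth, and 0 to 138 with 1 mouse left out. For Cck-high lesions against NT they were 1431 with no filter, 37 among females, 242 without those mice and 57 to 573 with 1 mouse left out, and for Cck-low lesions 3 with no replicate block, 995 with no filter, 0 among females, 0 without those mice and 0 to 446 with 1 mouse left out. Leaving the mouse block out gave 263 calls for Cck-high lesions. The cause was not tested. Of 87 genes examined, 80 kept their direction between the lesion classes in every alternative other than the continuous covariate. Many of them were picked by small p in these same lesions, so that count is no independent support. The log2 fold change turned to 0.00612 for Pam and 0.24 for Fndc3a among females, and to -0.45 for Slco3a1 among females and -0.34 without the lesion over 2000 CPM of Pth. With 1 lesion left out it ran from -1.88 to 0.18 for Hba-a1, -0.16 to 0.65 for Tg, -1.63 to 0.17 for Slc5a5, -0.46 to 0.16 for Fndc3a, -0.22 to 0.25 for Trpv4 and -0.34 to 1.10 for Slco3a1. With Cck as a continuous covariate the slope was -0.15 for Slco3a1 and -1.47 for Pth. A fit without ribosomal protein and mitochondrial genes was chosen after seeing the data. Precision is limited by the 3 Cck-low lesions.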

Other observations

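Other gene groups also held 0 called members between Cck-high and Cck-low lesions. Antioxidant genes were above 0 in 17 of 24 tested (median log2 fold change 0.22), among them Prdx4, a peroxiredoxin of the secretory pathway, at 89.7 ± 30.5 CPM in Cck-high lesions and 47.5 ± 12.1 CPM in Cck-low lesions (SD, n = 6 and 3). In NT, 21 of 24 antioxidant genes were above 0 between both kinds of mice (median 0.48). Their change of the lesion from NT, set between the classes, was below 0 in 15 of 24. Cholesterol synthesis genes were above 0 in 13 of 19 (median 0.13), with the regulator Srebf2 at 53.3 to 113 CPM in Cck-high lesions and 46.8 to 59.4 CPM in Cck-low lesions. They were above 0 in 16 of 19 between NT of both kinds of mice (median 0.25). Genes of glycolysis and hypoxia were below 0 in 13 of 20 (median -0.12), although the glycolytic enzyme gene Gapdh lay at 170.4 to 351 CPM in Cck-high lesions and 113 to 143 CPM in Cck-low lesions.

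Among 19 targets of cyclic AMP signalling 9 were above 0. Crem, a regulator in that pathway, averaged 35.7 ± 7.11 CPM in Cck-high lesions and 22.1 ± 3.18 CPM in Cck-low lesions, and Ppargc1a, a coactivator of mitochondrial genes, averaged 49.98 ± 5.40 CPM in Cck-high lesions and 76.1 ± 15.7 CPM in Cck-low lesions. Of 18 Wnt and Notch genes 10 were above 0, and the ligand Wnt5a averaged 38.3 ± 14.2 CPM in Cck-high lesions and 19.0 ± 5.63 CPM in Cck-low lesions. Against NT, Wnt5a rose by 1.60 (SE 0.34, edgeR adjusted p = 0.0306) in Cck-high lesions and had a change of 1.23 (SE 0.47) in Cck-low lesions. Of 20 genes of epithelial-mesenchymal transition 11 were below 0, with Zeb1, a repressor of epithelial genes, at 11.3 to 32.2 CPM in Cck-high lesions and 41.3 to 55.9 CPM in Cck-low lesions, and Id1, a target of bone morphogenetic proteins, at 97.4 ± 29.6 CPM in Cck-high lesions and 190 ± 52.9 CPM in Cck-low lesions.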
